A study of Oryza sativa with 12 samples.

Results

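The cellulose synthase genes of rice roots were examined at 9 loci, 6 assigned to the primary cell wall (CesA1, CesA2, CesA3, CesA5, CesA6 and CesA8) and 3 to the secondary cell wall (CesA4, CesA7 and CesA9). The members were chosen by locus, and every annotated transcript of these loci was taken. They comprised 28 transcripts, 22 of primary and 6 of secondary wall loci, among 42081 transcripts of 34791 loci in the whole table. All 28 carried the annotation term for cellulose synthase activity, 18 were described as cellulose synthase, and the other 10 were described only by a cDNA clone. RNA-Seq had been carried out on roots of R9308, of Xieqingzao B and of the super-hybrid rice Xieyou9308, for which Xieqingzao B was the female and R9308 the male parent, without any treatment that differed between them. All plants were grown in nutrient solution after field sowing, and each of the 3 genotypes was sampled at tillering and again at heading. Each of the 6 groups had 2 libraries, made from separate roots. The p-values thus measure the spread between 2 roots of a group, estimated jointly over the 3 genotypes of a stage or over all 6 groups. The hybrid is 1 cross, and whole roots were used, so fewer cells of a type and less RNA per cell cannot be told apart.

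Cellulose is made at the plasma membrane by rosette complexes in which different cellulose synthase catalytic subunits are assembled together. In plants, one set of subunits works in expanding cells, where the thin primary wall is laid down. Another set works in xylem and fibre cells after growth has stopped, where a thick secondary wall is deposited. In rice, mutants of CesA4, CesA7 and CesA9 have brittle culms, and the products of these 3 genes are subunits of the secondary wall complex. Levels are given as RPKM, reads per kilobase of transcript scaled to the total counts of the library, and were summed over the transcripts of a locus where a locus is named.

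Depth ranged from 8209696 to 15830233 counts per library. Of 5 root transcripts, including the silicon transporters Lsi1 and Lsi2, none was at 0 in 11 of the 12 libraries, and their summed level lay between 530.1 and 1943 RPKM. The library of R9308 at tillering, replicate 1, held 4696 RPKM over 27 light-harvesting and Rubisco small subunit transcripts, against 3.22 to 249.6 RPKM in the other 11 libraries. The library of Xieyou9308 at tillering, replicate 2, stood apart within the cellulose synthase loci themselves. Its counts sat on shorter transcripts of the same loci, as described below, and several results on the hybrid at tillering differed with it and without it, or between RPKM and counts.

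**Figure D1:**
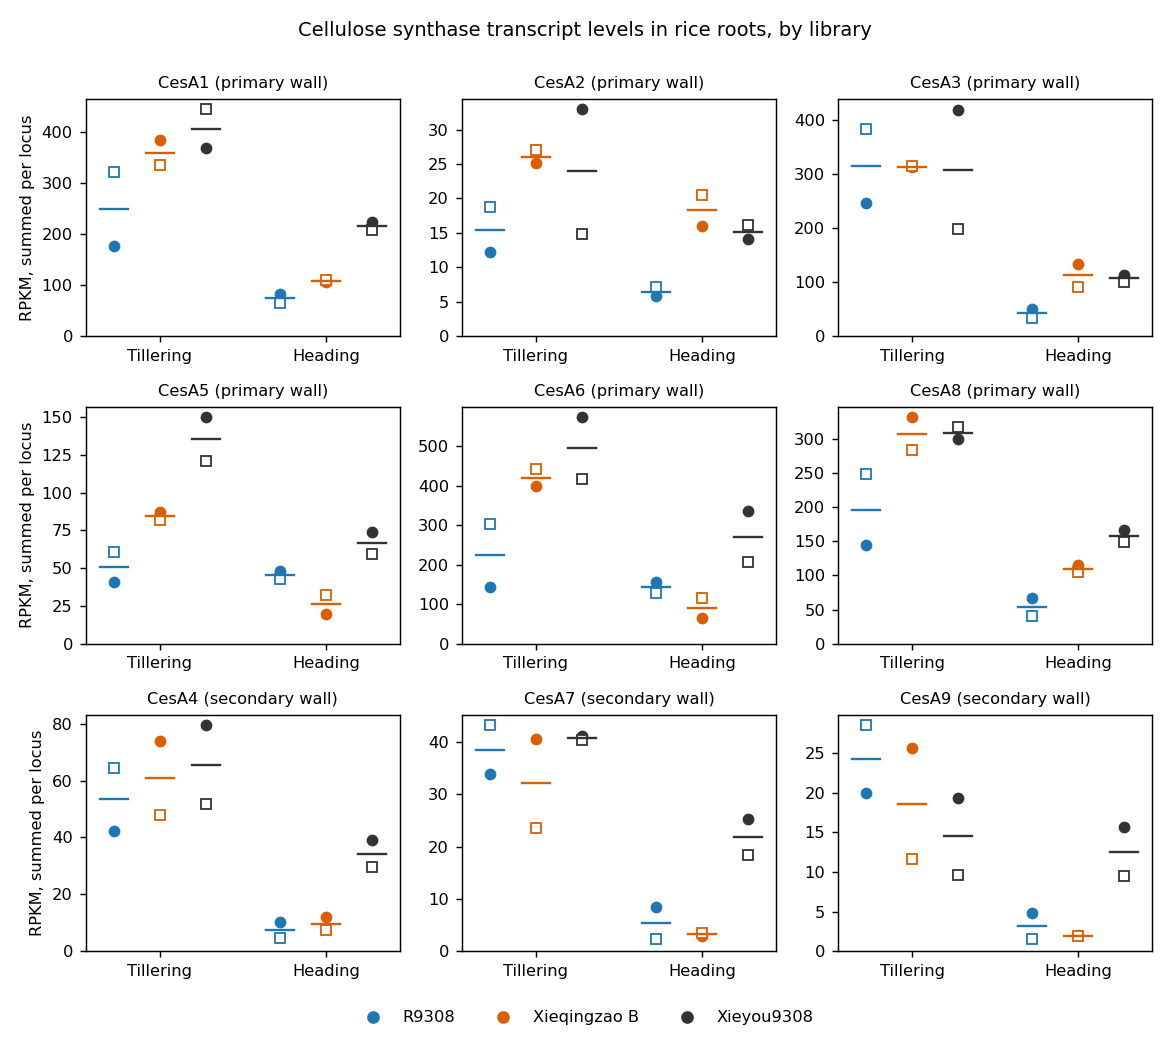
Transcript levels of the 9 cellulose synthase loci, with the RPKM summed over the transcripts of a locus on a linear vertical axis and the stages on the horizontal axis. Filled circles are replicate 1, open squares are replicate 2 and short lines are means of 2 libraries, and at heading both Xieyou9308 libraries lie above all 4 parental libraries in 7 of the 9 panels.

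The loci differed widely in level. CesA6 (Os07t0252400) had the highest mean level over the 12 libraries, 273.7 RPKM, and ranged from 64.1 to 573.7 RPKM with a median of 254.1. CesA1 (Os05t0176100) followed with a mean of 235.9 RPKM, from 65.1 to 446 RPKM with a median of 216.4. CesA3 (Os07t0424400) had a mean of 199.7 RPKM, from 33.9 to 419 RPKM with a median of 165.5. Each of these is a primary wall subunit, and the order among them was not fixed, as CesA6 was above CesA1 in 7 of 12 libraries and CesA1 above CesA3 in 8 of 12. CesA8 (Os07t0208500) had a mean of 189.2 RPKM, and CesA3 was above it in only 5 of 12 libraries. CesA5 (Os03t0837100), another primary wall subunit, had a mean of 68.2 RPKM and was below CesA8 in 11 of 12 libraries. These 5 loci held most of the cellulose synthase transcript.

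The secondary wall loci and CesA2 were lower. CesA4 (Os01t0750300) had a mean of 38.6 RPKM, from 4.62 to 79.5 RPKM with a median of 40.8. CesA7 (Os10t0467800) had a mean of 23.6 RPKM, from 2.42 to 43.1 RPKM, and was below CesA4 in 12 of 12 libraries. CesA9 (Os09t0422500) had the lowest mean, 12.5 RPKM, from 1.58 to 28.5 RPKM. CesA2 (Os03t0808100), a primary wall subunit, had a mean of 17.6 RPKM, below CesA7 in 8 of 12 libraries and above CesA9 in 8 of 12. The highest library exceeded the lowest by 17.2, 17.8 and 18 times for CesA4, CesA7 and CesA9. For the 6 primary wall loci this ratio lay between 5.67 for CesA2 and 12.4 for CesA3.

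The first comparison asked how each genotype changed from tillering to heading. In both parents the secondary wall loci fell to a small part of their tillering level, while in Xieyou9308 no locus passed the test. Root transcripts also differed between the stages, as Lsi1 and Lsi2 were called higher at heading in R9308, by 2.81 and 3.28 on the log2 scale, and in the hybrid, by 2.51 and 3.48. Os02t0662000-01, of the root protein RCc3, measured between 299.9 and 972.3 RPKM at tillering and between 6.41 and 132.3 RPKM at heading. Their part in the result was not tested. CesA4 in R9308 measured 42.4 and 64.6 RPKM at tillering and 10.3 and 4.62 RPKM at heading. In Xieqingzao B it measured 74.1 and 47.9 RPKM at tillering and 12 and 7.38 RPKM at heading. In Xieyou9308 it measured 79.5 and 51.8 RPKM at tillering and 39.2 and 29.5 RPKM at heading. The stages did not overlap in the parents. In the hybrid they did not overlap in RPKM, but in CPM, counts scaled to the library total with no division by length, they did, at 271 and 91.1 at tillering and 129.7 and 85.5 at heading. CesA7 measured 33.8 and 43.1 RPKM in R9308 at tillering and 8.47 and 2.42 RPKM at heading. In Xieqingzao B, CesA7 measured 40.5 and 23.6 RPKM at tillering and 2.89 and 3.56 RPKM at heading. In Xieyou9308, CesA7 measured 41 and 40.3 RPKM at tillering and 25.2 and 18.4 RPKM at heading. In CPM the hybrid measured 85.1 and 42.7 at tillering and 84.4 and 63 at heading, so the fall in RPKM was not seen in counts, of which those on a transcript of 612 bases weigh more in RPKM. The heading libraries of the hybrid exceeded every parental heading library of this gene on both scales. CesA9 followed the same pattern, with 20 and 28.5 RPKM in R9308 at tillering and 4.85 and 1.58 RPKM at heading. In Xieqingzao B it measured 25.6 and 11.6 RPKM at tillering and 1.99 and 1.9 RPKM at heading. In Xieyou9308 it measured 19.3 and 9.65 RPKM at tillering and 15.6 and 9.54 RPKM at heading, and the stages overlapped.

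Tested on counts summed over each locus with edgeR, where a locus was called at an adjusted p of at most 0.05 and at least a 2-fold change, 6 of 9 loci fell in R9308 and 4 of 9 fell in Xieqingzao B. Over all 24126 loci tested, 4.16% were called in R9308 and 3.61% in Xieqingzao B. In R9308, CesA4 fell by 2.89 ± 0.605 on the log2 scale (SE, adjusted p = 0.0354), CesA7 by 2.74 ± 0.593 (adjusted p = 0.0387) and CesA9 by 2.83 ± 0.626 (adjusted p = 0.0408). Among primary wall loci of R9308, CesA3 fell by 2.9 ± 0.523 (adjusted p = 0.0248), CesA8 by 1.86 ± 0.401 (adjusted p = 0.0387) and CesA1 by 1.7 ± 0.372 (adjusted p = 0.0395). In Xieqingzao B, CesA7 fell by 3.25 ± 0.607 (adjusted p = 0.0316), CesA9 by 3.3 ± 0.642 (adjusted p = 0.0342) and CesA4 by 2.74 ± 0.599 (adjusted p = 0.0433). CesA1 fell by 1.76 ± 0.372 (adjusted p = 0.0405) and was the primary wall locus called in that line. The median log2 change over the 9 loci was -1.86 in R9308 and -1.76 in Xieqingzao B, against -0.0936 and 0.00209 over all loci tested. The parents did not share every locus with a low value at heading. CesA5 had a log2 change of -0.12 ± 0.398 in R9308 (adjusted p = 0.88) and -1.65 ± 0.409 in Xieqingzao B (adjusted p = 0.0578). CesA6 had -0.62 ± 0.506 in R9308 (adjusted p = 0.467) and -2.19 ± 0.527 in Xieqingzao B (adjusted p = 0.0537).

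In Xieyou9308, 0 of 9 loci were called between the stages, where 6.68% of all loci were called. Against 6994 of all 24126 loci with an unadjusted p under 0.05, there was 1 among the 9. That locus was CesA3, with a log2 change of -1.14 ± 0.493 (adjusted p = 0.163). CesA7 had 0.3 ± 0.553, CesA9 had -0.11 ± 0.581 and CesA4 had -0.66 ± 0.562. Without replicate 2 of the hybrid at tillering, the log2 changes of CesA7, CesA9 and CesA4 in Xieyou9308 were -0.15 ± 0.624, -0.56 ± 0.656 and -1.27 ± 0.504, and 0 of 9 loci were called. Without replicate 1 of the hybrid at tillering they were 0.96 ± 0.654, 0.55 ± 0.683 and 0.41 ± 0.53. Without either of these hybrid libraries, 7 loci were called in R9308 and 8 in Xieqingzao B. Without R9308 at tillering, replicate 1, the library with the light-harvesting transcripts, 2 loci were called in R9308, CesA1 and CesA8, and 7 in Xieqingzao B. In R9308, 1 locus was called without its tillering replicate 2 or either Xieqingzao B tillering library, and 2 without either Xieqingzao B heading library. In Xieqingzao B, 7 were called without R9308 at tillering, replicate 2, and 2 without either R9308 heading library. The number called fell to 0 in both parents without either hybrid heading library, and also in R9308 without either of its own heading libraries and in Xieqingzao B without any 1 of its 4 own libraries. These omissions of libraries from the summed counts were chosen after seeing the data. How many of all features were called under an omission is not given, here and below. The counts of members called under omissions thus have no share to be set against.

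**Figure D2:**
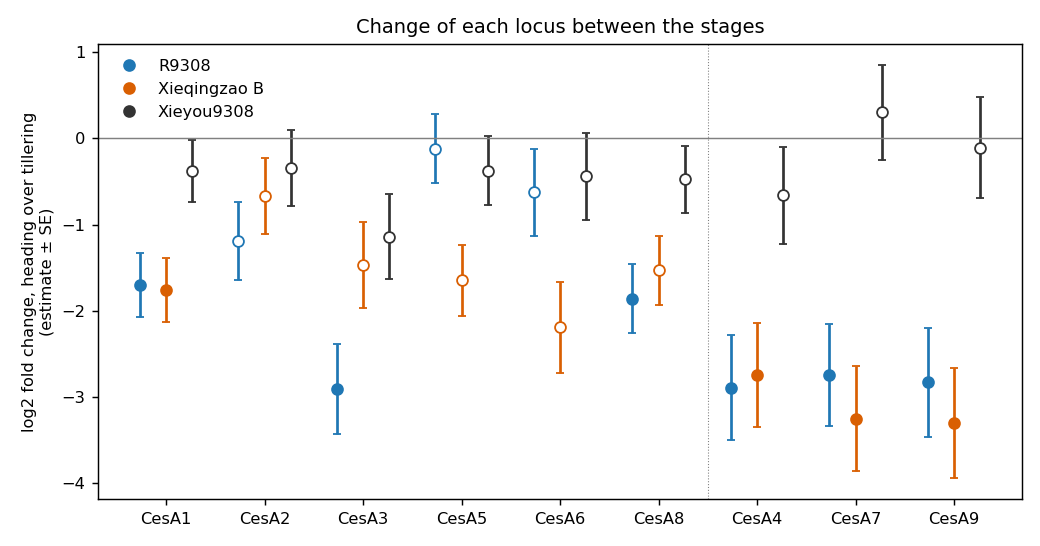
Log2 fold change of heading over tillering for each locus, from counts summed over the locus, with the standard error as bars. Filled points were called, and the dotted line parts the primary from the secondary wall loci, where both parents lie between -3.3 and -2.74 and Xieyou9308 between -0.66 and 0.3.

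On single transcripts the same comparison called fewer members in the parents. In R9308, 0 of 27 tested transcripts were called with edgeR, against 1.2% of all 29560 transcripts. Of the 27, 10 had an unadjusted p under 0.05, against 6070 of all transcripts. DESeq2 called 9 and the exact test with a common dispersion called 12. In Xieqingzao B, 0 of 27 were called, against 0.088% of all transcripts. Of the 27, 15 had an unadjusted p under 0.05, against 5792 of all transcripts, while DESeq2 and the exact test each called 11. The shares of transcripts called, here and below, are those of edgeR, so calls by DESeq2 and the exact test cannot be set against them. In Xieyou9308, 1 of 27 was called, against 1.68% of all transcripts. It was the short CesA5 transcript Os03t0837100-03, at 48.2 and 81.3 RPKM at tillering and 5.78 and 11.2 RPKM at heading, which fell by 2.81 ± 0.557 on the log2 scale (adjusted p = 0.0489). The highest of these values came from the library whose counts sat on short transcripts. No member was called in Xieyou9308 without any 1 of 11 libraries, that one included. Without replicate 1 of the hybrid at tillering, the main transcripts of several loci turned from a fall to a rise. Their log2 changes were 3.15 for CesA4, 1.61 for CesA3, 1.34 for CesA2, 1.23 for CesA6, 0.65 for CesA8 and 0.56 for CesA9.

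By summed RPKM, both heading libraries were below both tillering libraries at 7 loci in R9308, 9 in Xieqingzao B and 7 in Xieyou9308. Over all 23090 loci with enough counts, this held for 36.8%, 26.6% and 32.6%. The exceptions were CesA5 and CesA6 in R9308 and CesA2 and CesA9 in Xieyou9308. By CPM, a scale added after seeing the data, the counts were 7, 9 and 3, against 36.8%, 26.5% and 32.1% of all loci, and the 3 loci of the hybrid were CesA1, CesA3 and CesA8. By summed RPKM without replicate 2 of the hybrid at tillering, both heading libraries of the hybrid were below the other tillering library at 9 of 9 loci, against 44.2% of all loci. The order of the stages in the hybrid thus depended on the scale and on that library.

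The second comparison asked whether the hybrid differed from its parents at heading. Both heading libraries of Xieyou9308 lay above all 4 parental libraries at 7 of 9 loci, while this held for 11.6% of all loci, and by CPM the same 7 loci were separated, against 11.6% of all loci. The exceptions were CesA2 and CesA3, at which Xieqingzao B was as high. Among primary wall loci, CesA1 measured 224.2 and 208.6 RPKM in Xieyou9308, 82.8 and 65.1 RPKM in R9308, and 106.8 and 109.9 RPKM in Xieqingzao B. CesA6 measured 336 and 205.9 RPKM in Xieyou9308, 156.3 and 128 RPKM in R9308, and 64.1 and 115.1 RPKM in Xieqingzao B. CesA8 measured 167.5 and 149 RPKM in Xieyou9308, 67.5 and 41 RPKM in R9308, and 115 and 104.4 RPKM in Xieqingzao B. In each of these the lower hybrid library exceeded the highest parental library. CesA5 measured 73.8 and 59.5 RPKM in Xieyou9308, 47.9 and 43.1 RPKM in R9308, and 19.7 and 32.2 RPKM in Xieqingzao B. CesA3 measured 113 and 100.6 RPKM in Xieyou9308, 49.6 and 33.9 RPKM in R9308, and 133.8 and 91.1 RPKM in Xieqingzao B. CesA2 measured 14.1 and 16.1 RPKM in Xieyou9308, 5.83 and 7.1 RPKM in R9308, and 16 and 20.5 RPKM in Xieqingzao B. At CesA3 and CesA2 the hybrid overlapped its maternal line and not its paternal line.

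Against R9308, 4 of 9 loci were called in counts summed over loci, all higher in Xieyou9308, where 2.68% of all loci were called. CesA4 was higher by 2.37 ± 0.406 on the log2 scale (adjusted p = 0.0399), CesA8 by 1.61 ± 0.249 (adjusted p = 0.0319), CesA1 by 1.54 ± 0.193 (adjusted p = 0.0165) and CesA2 by 1.26 ± 0.213 (adjusted p = 0.0388). CesA3 had 1.43 ± 0.268 and just missed the threshold (adjusted p = 0.0501). CesA7 had 2.22 ± 0.474 (adjusted p = 0.0656) and CesA9 had 1.97 ± 0.524 (adjusted p = 0.109). On single transcripts, 0 of 26 were called, against 0.886% of all transcripts. Of the 26, 14 had an unadjusted p under 0.05, against 4281 of all 27187 transcripts, while DESeq2 called 8 and the exact test 10. The median log2 fold change of the 26 was 1.3, against 0.00125 over all transcripts, and 23 of 26 were above 0.

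Against Xieqingzao B, 6 of 9 loci were called, all higher in Xieyou9308, where 14.5% of all loci were called. CesA7 was higher by 2.88 ± 0.486 on the log2 scale (adjusted p = 0.0143), CesA9 by 2.83 ± 0.543 (adjusted p = 0.0207) and CesA4 by 2.01 ± 0.398 (adjusted p = 0.0225). CesA6 was higher by 1.73 ± 0.373 (adjusted p = 0.0277), CesA5 by 1.52 ± 0.299 (adjusted p = 0.022) and CesA1 by 1.14 ± 0.191 (adjusted p = 0.0142). CesA2 and CesA3 had log2 fold changes of 0.05 ± 0.208 and 0.07 ± 0.262. On single transcripts, 5 of 26 were called, against 8.1% of all transcripts. They were the main transcripts of CesA4 (2.15 ± 0.375, adjusted p = 0.0317), CesA7 (2.87 ± 0.5, adjusted p = 0.0316) and CesA9 (2.83 ± 0.584, adjusted p = 0.0457), with Os05t0176100-04 of CesA1 (1.61 ± 0.209, adjusted p = 0.0179) and Os07t0252400-02 of CesA6 (1.77 ± 0.377, adjusted p = 0.0481). The median of the 26 was 1.09, against -0.0291 over all transcripts.

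Against the mean of the parents, 6 of 9 loci were called, all higher in Xieyou9308, where 6.01% of all loci were called. CesA7 was higher by 2.55 ± 0.379 (adjusted p = 0.0186), CesA9 by 2.4 ± 0.424 (adjusted p = 0.0285) and CesA4 by 2.19 ± 0.321 (adjusted p = 0.0179). CesA6, CesA1 and CesA8 were higher by 1.36 ± 0.303, 1.34 ± 0.158 and 1.16 ± 0.204 (adjusted p = 0.0492, 0.0116 and 0.0281). On single transcripts, 4 of 26 were called, against 2.21% of all transcripts. They were Os01t0750300-01 of CesA4, Os10t0467800-01 of CesA7, Os07t0208500-01 of CesA8 and Os05t0176100-04 of CesA1, with log2 fold changes of 2.36, 2.58, 1.2 and 1.3. In each of these 3 comparisons, no member was called, by transcript or by locus, when either heading library of the hybrid was left out, while the log2 fold changes of CesA4, CesA7 and CesA9 against Xieqingzao B by locus lay between 1.66 and 3.16 over all 6 omissions. Over R9308 they lay between 1.37 and 3 for CesA9, between 1.66 and 3.16 for CesA7 and between 1.99 and 2.9 for CesA4. By locus, 1 and 0 were called over R9308 without its heading replicates 1 and 2, and 6 without either Xieqingzao B library. Over the mean of the parents, 1 locus was called without R9308 at heading, replicate 2. Light-harvesting and Rubisco transcripts summed to 249.6 and 78.8 RPKM in the heading libraries of Xieyou9308, 3.22 and 5.5 RPKM in R9308, and 65.8 and 140.3 RPKM in Xieqingzao B. The summed root transcripts measured 1099 and 903.2 RPKM in Xieyou9308, 1943 and 1499 RPKM in R9308, and 770 and 1852 RPKM in Xieqingzao B. The part of either in the result was not tested.

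**Figure D3:**
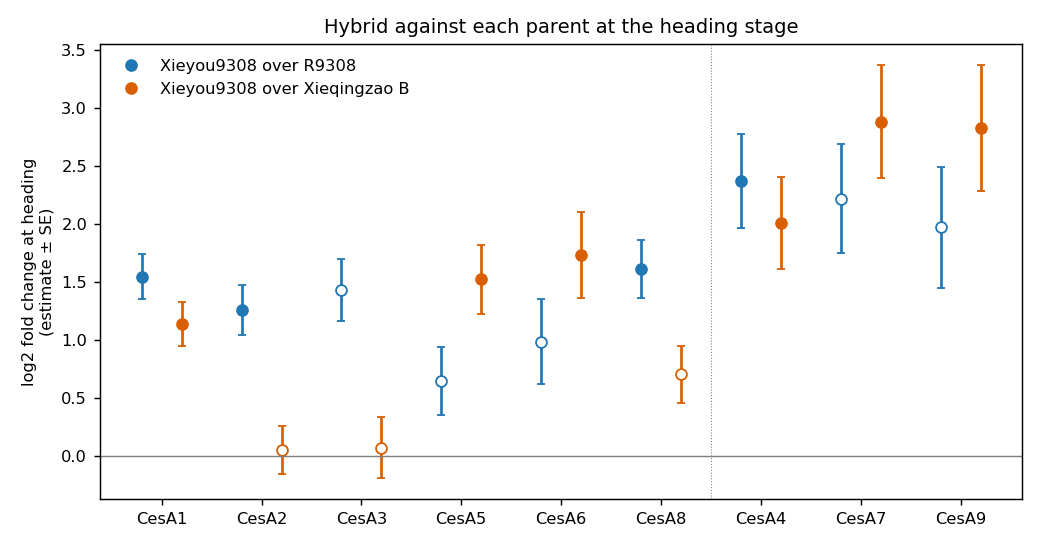
Log2 fold change of Xieyou9308 over each parent at heading for each locus, from counts summed over the locus, with the standard error as bars. Filled points were called, and the 18 estimates lie between 0.05 for CesA2 over Xieqingzao B and 2.88 for CesA7 over Xieqingzao B.

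Between the parents at heading, CesA2 and CesA3 were called. These were higher in Xieqingzao B than in R9308 by 1.21 ± 0.213 (adjusted p = 0.0128) and 1.36 ± 0.268 (adjusted p = 0.0182) on the log2 scale, and they were 2 of 9 loci called, against 15.5% of all loci. CesA8 had 0.91 ± 0.245 (adjusted p = 0.0482), under the 2-fold limit. By locus, 0 and 1 were called without R9308 at heading, replicates 1 and 2, and 1 without the hybrid at heading, replicate 2. On single transcripts, 3 of 26 were called, Os03t0808100-01 of CesA2 and Os07t0424400-01 and Os07t0424400-03 of CesA3, against 10.8% of all transcripts. These shares were not far from those over all features, and are thus no result about the members as a group. CesA4, CesA7 and CesA9 had log2 values of 0.36 ± 0.393, -0.66 ± 0.471 and -0.86 ± 0.531 between the parents, and none was called.

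At tillering no member was called between any genotypes. Both hybrid libraries were above all 4 parental libraries at 1 of 9 loci, CesA5, while this held for 12.1% of all loci. By CPM this held for 0 of 9 loci, against 11.7% of all loci, as CesA5 in the hybrid then measured 373.8 and 220.5, and Xieqingzao B 253.3 and 245. Replicate 1 of the hybrid alone was above the 4 parental libraries in RPKM at 5 of 9 loci, against 21.9% of all loci. CesA5 measured 150.3 and 121.2 RPKM in Xieyou9308, 40.6 and 60.9 RPKM in R9308, and 87.4 and 81.8 RPKM in Xieqingzao B. With edgeR, 0 of 27 transcripts were called between Xieyou9308 and R9308, against 0.0106% of all transcripts. Of the 27, 6 had an unadjusted p under 0.05, against 4920 of all 28434 transcripts, while DESeq2 called 5 and the exact test 4. Between Xieyou9308 and Xieqingzao B, 0 of 27 were called, against 0.0% of all transcripts. An unadjusted p under 0.05 was found for 1, against 2438 of all transcripts, while DESeq2 called 0 and the exact test 3. Between the parents, 0 of 27 were called, against 0.0246%. An unadjusted p under 0.05 was found for 2, against 2563 of all transcripts, while DESeq2 called 2 and the exact test 3. Against the mean of the parents, 0 of 27 were called, against 0.0%. An unadjusted p under 0.05 was found for 5, against 4284 of all transcripts, while DESeq2 called 4. The members with an unadjusted p under 0.05 at tillering were not far in share from all transcripts, and are no result about the members. Few features of any kind were called at this stage, so small differences in the members were not detectable with these libraries.

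Whether the difference between hybrid and parent changed with the stage was tested as an interaction. The estimates were large for the secondary wall trio, at 3.05 ± 0.802 for CesA7, 2.72 ± 0.841 for CesA9 and 2.23 ± 0.805 for CesA4 against R9308 on the log2 scale, in counts summed over loci. Against Xieqingzao B they were 3.55 ± 0.809, 3.19 ± 0.85 and 2.08 ± 0.802. None passed, since the smallest adjusted p over the 9 loci was 0.127 against R9308 and 0.0984 against Xieqingzao B. An unadjusted p under 0.05 was found for 6 and 5 of the 9 loci, against 4310 and 4386 of all 24126 loci. On single transcripts, 0 of 27 passed in each of the 4 interactions. These were the hybrid against R9308, the hybrid against Xieqingzao B, Xieqingzao B against R9308 and the hybrid against the mean of the parents. In that order, 7, 4, 2 and 5 had an unadjusted p under 0.05, against 4666, 4486, 3668 and 4918 of all 29560 transcripts. DESeq2 called 5, 3, 2 and 3 in the same order. The change between the stages is thus not shown to differ between the hybrid and its parents. Without replicate 1 of the hybrid at tillering, 6 and 5 transcripts passed against R9308 and Xieqingzao B, and in counts summed over loci 4 and 3 of 9 loci passed, with 5 against the mean of the parents. The remaining hybrid tillering library is then the one with counts on short transcripts. How many of all features passed without replicate 1 is not given here, so these counts are no result about the members.

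The share of the secondary wall class in the summed RPKM of all 9 loci followed the same levels. In R9308 it was 11.2% and 9.25% at tillering and 5.45% and 2.64% at heading. In Xieqingzao B it was 8.33% and 5.3% at tillering and 3.57% and 2.64% at heading. In Xieyou9308 it was 7.05% and 6.3% at tillering and 7.93% and 7.2% at heading. Both hybrid heading libraries exceeded the 4 parental heading libraries. As a share of counts, the hybrid had 7.55% and 5.58% at tillering and 8.49% and 7.51% at heading, so that its stages overlapped, while the parents had between 2.73% and 5.49% at heading. The RPKM of the primary wall loci summed to 928.5 and 739.7 in the heading libraries of the hybrid and to between 318.2 and 473.3 in those of the parents.

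**Figure D4:**
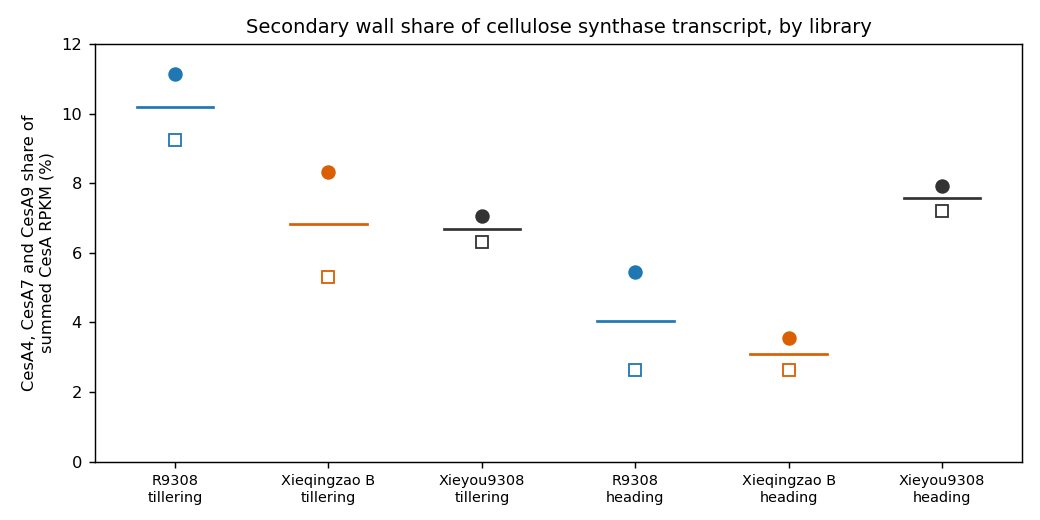
Share of CesA4, CesA7 and CesA9 in the summed RPKM of the 9 cellulose synthase loci, in percent, for each library by genotype and stage. Filled circles are replicate 1, open squares replicate 2 and lines means of 2 libraries, and the shares at heading run from 2.64% to 5.45% in the parents and from 7.2% to 7.93% in Xieyou9308.

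The sum of the 3 secondary wall genes varied from 8.62 to 140.1 RPKM. Of the ratios between their main transcripts, that of CesA7 to CesA9 varied least. Summed over loci and over all 12 libraries this did not hold, as CesA7 to CesA9 varied 2.88 times and CesA4 to CesA9 2.83 times. The ratio of the main transcript of CesA7 to that of CesA9 lay between 1.1 and 1.93 in 11 libraries and was 0.665 in Xieyou9308 at tillering, replicate 2. The ratio of the main transcript of CesA4 to that of CesA9 varied more, from 1.2 to 4.14 in the same 11 libraries, and was 0.379 in that library. The ratio of CesA4 to CesA7 ran from 0.9 to 3.63 in the 11 libraries and was 0.57 in that library. Summed over loci, the ratio of CesA7 to CesA9 was between 1.45 and 2.12 in 11 libraries and 4.18 in that library, and that of CesA4 to CesA9 lay between 2.12 and 6 in all 12. Among primary wall genes, the ratio of the main transcript of CesA3 to that of CesA8 ran from 0.405 to 1.11 and that of CesA6 to CesA8 from 0.461 to 2.25 in these 11 libraries. The main transcript of CesA6 was above that of CesA8 in both R9308 heading libraries, at ratios of 1.82 and 2.25. It was below it in both Xieqingzao B heading libraries, at 0.461 and 0.852. Summed over loci this order did not hold in Xieqingzao B at heading, replicate 2, with CesA6 at 115.1 and CesA8 at 104.4 RPKM.

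Within loci, counts were divided among several annotated transcripts at 8 of the 9 loci. CesA9 had 1 transcript, of 3629 bases. CesA1 had 7, of which Os05t0176100-01 had 0 counts in every library and Os05t0176100-03, of 3765 bases, was the highest with a mean of 98.3 RPKM. Os05t0176100-02, of 3731 bases, ranged from 0.358 to 109.3 RPKM, and since it overlaps the other long transcripts of this locus, how its counts were divided from theirs is uncertain. CesA6 had a long transcript of 3745 bases and a short one of 1335 bases at near mean levels, 137.3 and 136.4 RPKM. CesA8 had a long transcript of 3953 bases at 130.4 RPKM and a short one of 1241 bases at 58.8 RPKM. The sources used here do not say whether counting used strand, so reads of an antisense partner could not be told apart.

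The library of Xieyou9308 at tillering, replicate 2, differed in how these counts were divided. Transcripts of at least 3000 bases, a limit set after the counts were seen, held 13.9% of CesA4 counts in this library and 72.5% to 100% in the other 11. For CesA3 they held 37.3% against 77.1% to 90.7%, and for CesA1 44.9% against 82.5% to 93.4%. For CesA8 they held 55.7% against 86% to 95.6%, and for CesA6 39% against 72.1% to 81.7%. This library had the lowest share at 8 of 8 loci with long and short transcripts, and at 318 of 646 loci of that kind over the whole table, or 49.2%. The median share over these 646 loci was 51.9% in this library and between 72.4% and 79.9% in the others. The single transcripts show the size of the shift. Os05t0176100-07 of CesA1, of 1097 bases, measured 228.8 RPKM in this library and at most 35.3 RPKM in any other. Os07t0424400-05 of CesA3 measured 134.7 RPKM against at most 8 RPKM, and was at 0 in 8 libraries. Os01t0750300-01 of CesA4, of 3461 bases, measured 3.66 RPKM against 77.4 RPKM in replicate 1 of the same group. As RPKM divides by transcript length, the summed RPKM of CesA1 was higher in replicate 2 than in replicate 1, 446 against 368.4 RPKM, while its CPM was lower, 777.9 against 1120. The cause was not tested.

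**Figure D5:**
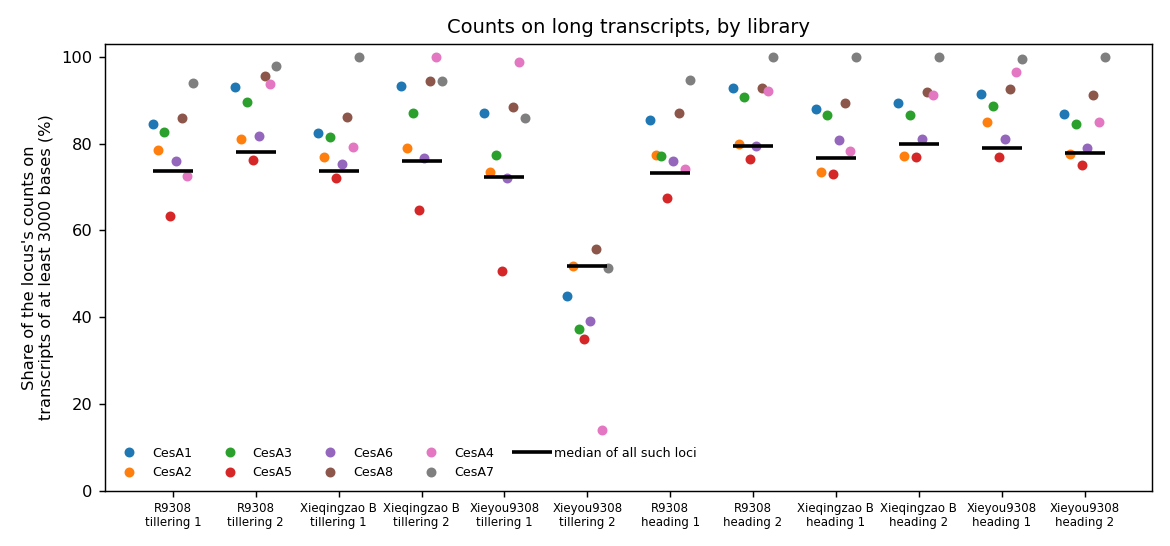
Share of the counts of each locus that fell on transcripts of at least 3000 bases, in percent, for the 8 cellulose synthase loci that have long and short transcripts, in each of the 12 libraries. Points are loci and black lines are medians over all 646 loci of that kind, and Xieyou9308 at tillering, replicate 2, has the lowest value of every locus, from 13.9% to 55.7%.

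Other genes of cellulose deposition were taken as lists. The first list held COBRA-like proteins, all transcripts described as cellulases or endoglucanases, a chitinase-like protein, a dynamin-related protein and a protein of unknown function. Of its 32 transcripts, the companions, 20 were tested at heading. Against R9308, 2 were higher in the hybrid and 0 lower, where 0.886% of all transcripts were called, with a median log2 fold change of 1.11. Against Xieqingzao B, 5 were higher and 0 lower, where 8.1% were called, with a median of 0.82. BRITTLE CULM1 (Os03t0416200-01), a COBRA-like protein needed for cellulose assembly in secondary walls of rice, measured 9.1 and 6.65 RPKM in Xieyou9308 at heading, 0.97 and 0.84 RPKM in R9308, and 2.92 and 1.68 RPKM in Xieqingzao B. It was higher in the hybrid by 3.12 ± 0.424 over R9308 (adjusted p = 0.049) and by 1.91 ± 0.394 over Xieqingzao B (adjusted p = 0.0457), and it fell by 3.42 ± 0.538 between the stages in R9308 (adjusted p = 0.0408). Of 25 companions tested between the stages in R9308, 1 was called lower and 1 higher, where 1.2% of all transcripts were called. The higher one rose by 3.58 ± 0.648 (adjusted p = 0.0466). It was Os07t0604300-01, described as similar to phytochelatin synthetase, at 4.38 and 5.44 RPKM at tillering and 64 and 48.4 RPKM at heading. At heading it was lower in Xieqingzao B than in R9308 by 2.23 ± 0.386 (adjusted p = 0.0237). Os10t0497700-01, described as similar to phytochelatin synthetase, a description that older annotations gave to COBRA-like proteins, measured 379.6 and 342.8 RPKM in Xieyou9308 and 32.3 and 95 RPKM in Xieqingzao B. It was higher in the hybrid by 2.64 ± 0.542 (adjusted p = 0.0451). Os05t0386800-02, with a similar description, was higher over R9308 by 2.1 ± 0.26 (adjusted p = 0.0414) and over Xieqingzao B by 1.42 ± 0.253 (adjusted p = 0.033). At tillering it measured 32.2 and 0 RPKM in replicates 1 and 2 of the hybrid. This locus and others named here have further annotated transcripts, and how counts were divided between them is uncertain. The chitinase-like Os09t0494200-02, whose product is needed for cellulose content in rice culms, measured 50.3 and 50.6 RPKM in Xieyou9308 and 17.1 and 14.2 RPKM in Xieqingzao B, a difference of 1.82 ± 0.302 (adjusted p = 0.0286).

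Of 5 transcripts of secondary wall regulators, 4 were tested at heading, and 1 was higher over R9308, against 0.886% of all transcripts called. Over Xieqingzao B, 2 were higher and 1 lower, against 8.1%. Os06t0131700-01, of the NAC factor SWN1 that switches on secondary wall genes in rice, measured 51.5 and 51.6 RPKM in Xieyou9308, 7.41 and 11.4 RPKM in R9308, and 16.4 and 13.4 RPKM in Xieqingzao B. It was higher by 2.46 ± 0.262 over R9308 (adjusted p = 0.0332) and by 1.92 ± 0.255 over Xieqingzao B (adjusted p = 0.0185). The other transcript of that locus, Os06t0131700-02, measured 0 and 0.067 RPKM in Xieyou9308 and 6.49 and 4.02 RPKM in Xieqingzao B and was called lower, so how counts were divided between them is uncertain. Os08t0115800-01, of the related factor SWN2, measured 3.24 and 4.08 RPKM in Xieyou9308, 3.2 and 1.72 RPKM in R9308, and 0.54 and 0.88 RPKM in Xieqingzao B. The hybrid was well above Xieqingzao B alone, with a difference of 2.49 ± 0.514 (adjusted p = 0.0457). Os12t0515300-00, taken as MYB46, stayed at 0.49 RPKM or less in every library. Os08t0151300-01, taken as MYB103L, measured 1.49 and 0.26 RPKM in Xieyou9308 at heading, 0.32 and 0.12 RPKM in R9308, and 0.5 and 0.67 RPKM in Xieqingzao B. The hybrid overlapped both parents there, and the transcript was not called. Of 20 laccase transcripts, enzymes of lignin polymerisation, 14 were tested at heading. Over R9308, 0 were called, where 0.886% of all transcripts were called, with a median of 0.97. Over Xieqingzao B, 1 was higher, a share near the 8.1% of all transcripts called, with a median of 1.26. That transcript was Os11t0708100-01, with 8.77 and 6.11 RPKM in Xieyou9308 and 1.35 and 1.37 RPKM in Xieqingzao B.

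A further list held the other transcripts with an annotation term for cellulose synthesis or a description as cellulose synthase. For the hybrid over either parent at heading it had lower medians than the members. Between the stages its medians were higher, at -0.46, -0.343 and 0.143 against -1.47, -1.92 and -0.997 in R9308, Xieqingzao B and the hybrid. The list holds the cellulose synthase-like genes of other wall polysaccharides. It also holds reversibly glycosylated polypeptides and others not described as cellulose synthases, so its values are not those of the cellulose synthase superfamily alone. Of 44 transcripts, 35 were tested at heading. Against R9308, 0 were called, where 0.886% of all transcripts were called, with a median log2 fold change of 0.3. Against Xieqingzao B, 2 were higher and 3 lower, where 8.1% of all transcripts were called, with a median of 0.51. The lower ones were Os09t0478300-01 by 1.85 ± 0.363 (adjusted p = 0.0409), Os02t0725300-01 by 1.51 ± 0.277 (adjusted p = 0.035) and Os10t0341700-02 by 1.24 ± 0.155 (adjusted p = 0.0168), and the other higher one was Os03t0599800-01, a reversibly glycosylated polypeptide (1.26 ± 0.253, adjusted p = 0.0435). Between the parents, 3 were higher and 4 lower in Xieqingzao B, where 10.8% of all transcripts were called. They included Os07t0553300-00, Os07t0551600-01 and Os06t0111800-02, with log2 values of -2.93, -2.22 and -1.78, and Os09t0478100-01, with 2.17. Between the stages in the hybrid, 1 of 35 tested was called higher and 2 lower, where 1.68% of all transcripts were called. Os07t0553300-00 rose by 6.1 ± 0.942 (adjusted p = 0.0339). Os07t0604800-01, described as similar to a glucan-protein synthase, and Os02t0725300-01 fell by 2.22 ± 0.414 and 1.33 ± 0.26 (adjusted p = 0.045 and 0.0478). Another called between the parents, cellulose synthase-like H1 (Os10t0341700-02), measured 63.3 and 59.6 RPKM in Xieqingzao B, 14.1 and 15.4 RPKM in R9308 and 24.1 and 23.3 RPKM in Xieyou9308. The hybrid lay between its parents, and the parents differed by 1.94 ± 0.159 (adjusted p = 0.00418). Os07t0553300-00, described as a cellulose synthase family protein, measured 4.7 and 2.48 RPKM in Xieyou9308, 1.11 and 0.83 RPKM in R9308 and 0.13 and 0.14 RPKM in Xieqingzao B. It was higher in the hybrid over Xieqingzao B by 4.83 ± 0.542 (adjusted p = 0.0136).

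Among 16646 other transcripts with a mean of at least 5 RPKM, those whose profile over the 12 libraries was nearest to the secondary wall class were ranked by the root mean square difference of centred log2 levels. The nearest were Os02t0630300-01, an oxygenase domain protein, at 0.5, and the laccase Os11t0708100-01, at 0.51. They were followed by Os07t0603300-01 at 0.52, Os02t0640300-01, similar to a membrane steroid binding protein, at 0.53 and the subtilase-like Os01t0795400-01 at 0.56. CesA7, CesA9 and CesA4 themselves differed from their class mean by 0.23, 0.41 and 0.54, so these neighbours were about as far from it as CesA4. Nearest to the primary wall class were Os01t0257100-01, of the Rapid Alkalinization Factor family of growth-controlling peptides, at 0.21, and Os03t0278000-02, a UDP-glucuronic acid decarboxylase that makes the sugar donor for xylans, at 0.32. These were followed by Os02t0448400-01, Os04t0592400-01 and Os01t0674800-01, at 0.33, 0.33 and 0.34. Without Xieyou9308 at tillering, replicate 2, a choice made after seeing the data, 1 of the 5 secondary and 2 of the 5 primary wall neighbours were kept, so which transcripts were nearest depended on that library.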

How the data were processed

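Transcript levels were measured by RNA-Seq of poly-A RNA from rice roots in 12 libraries, put into 6 groups by cultivar and stage from the labels. Reads were filtered by the authors, who used RSEM 1.1.11 with IRGSP build 5.0 of the Nipponbare genome after base calling with CASAVA 1.8, and the deposited counts are whole numbers for each annotated transcript, not normalized. The authors' RPKM was made from these counts, transcript length and library sum, as was checked on all values. RSEM divides reads that fit several transcripts, so counts of overlapping transcripts depend on each other. The authors also deposited 18 columns of their own comparisons, with log2 fold changes and p-values, which were not used here. Gene names and coordinates by build were not used from the reference table, which lists another assembly.

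Low counts were removed with filterByExpr, libraries were scaled by TMM, and quasi-likelihood F-tests were run in edgeR 4.0.16 (R 4.3.3, limma 3.58.1), with the Benjamini-Hochberg adjustment over all features. Genotypes were compared within a stage on 6 libraries, and stages and interactions on all 12. A feature was called at an adjusted p up to 0.05 with a change of 1 or more on the log2 scale in either direction (for interactions, at the adjusted p alone). The SE is the log2 fold change over the square root of F. Of 28 member transcripts, 27 passed the filter at tillering and over all 12 libraries and 26 at heading, and the main transcript of a locus is that with the highest mean RPKM. Counts summed over loci, DESeq2 1.42.0, an exact test, library sizes alone, no filter, a replicate block and omission of each library were alternatives, and the order of libraries by CPM was added after seeing the data. Every member is named or counted, the 6 largest list transcripts called in a comparison are named, with further ones for Xieyou9308 over Xieqingzao B that were chosen after their values were seen, and 5 neighbours per class are named. Members and lists were chosen with earlier results of these data known. Prior degrees of freedom were 2.574 at tillering, 2.611 at heading and 2.543 over all libraries, which limits what could be called. The fits were tested on simulated data.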

Additional observations from a re-analysis of the deposited data

How the results depend on the processing

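With 2 libraries per group, calls on the members depended on the test, and values moved less than calls. How many of all transcripts DESeq2 and the exact test called is not given here. Their counts of members thus have no share to be set against, and the same holds below for counts with a library left out. DESeq2 called 8 transcripts between Xieyou9308 and R9308 at heading in place of 0, 9 against Xieqingzao B in place of 5 and 10 against the mean of the parents in place of 4. At tillering it called 5, 2 and 4 for the hybrid over R9308, Xieqingzao B over R9308 and the hybrid over the mean of the parents, in place of 0. Between the stages it called 9, 11 and 5 in R9308, Xieqingzao B and the hybrid, in place of 0, 0 and 1, and 5, 3, 2 and 3 in the 4 interactions, in place of 0. With 1 dispersion shared by all transcripts, the exact test called 10, 12 and 6 for the hybrid over R9308, the hybrid over Xieqingzao B and Xieqingzao B over R9308 at heading, 4, 3 and 3 at tillering, and 12, 11 and 6 between the stages. Counts summed over loci gave 4, 6 and 4 calls, of 9 loci, for the hybrid over R9308 at heading, R9308 between the stages and Xieqingzao B between the stages, and 0 for the hybrid between the stages. All 12 libraries in one fit gave 1 call for the hybrid over Xieqingzao B at heading, 0 for the parents and for the mean of the parents at heading, and 1 for the hybrid over R9308 at tillering. Without the filter, and in the 4 libraries of the genotype, 0 were called between the stages in the hybrid.

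The replicate numbers were not taken as pairs, as deviations of same-numbered libraries correlated between -0.345 and 0.0353. With a replicate block, 2 transcripts were called for the hybrid over Xieqingzao B at heading, and 0 for the hybrid over the mean of the parents and for the hybrid between the stages.

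With each library left out in turn, calls ran from 0 to 1 for the hybrid over R9308 at heading, 0 to 4 for the hybrid over Xieqingzao B, 0 to 3 for Xieqingzao B over R9308 and 0 to 7 for the hybrid over the mean of the parents. They ran from 0 to 8 in R9308, 0 to 5 in Xieqingzao B and 0 to 7 in the hybrid between the stages, and from 0 to 6, 0 to 5 and 0 to 6 for the interactions of the hybrid with R9308, Xieqingzao B and the mean of the parents. Signs turned for several main transcripts that were not called with no library left out, of which the one then farthest from 0 was -0.847. The turned values could be large, up to 3.15 for CesA4 between the stages in the hybrid without its tillering replicate 1. Over the omissions, log2 fold changes between the stages in the hybrid ran from -0.78 to 1.34 for CesA2, -1.07 to 1.61 for CesA3, -1.36 to 3.15 for CesA4, -0.15 to 1.26 for CesA5, -0.703 to 1.23 for CesA6, -0.705 to 0.65 for CesA8 and -0.55 to 0.56 for CesA9. In R9308 they ran from -0.59 to 0.57 for CesA5 and -1.19 to 0.13 for CesA6. At heading they ran from -0.072 to 0.42 for CesA2 and -0.14 to 0.43 for CesA3 in the hybrid over Xieqingzao B, and from -1.14 to 0.29 for CesA7 and -1.45 to 0.18 for CesA9 in Xieqingzao B over R9308. Library sizes alone gave -0.017 for CesA3 in the hybrid over Xieqingzao B, and counts summed over loci gave -0.38 for CesA1 and -0.37 for CesA5 between the stages in the hybrid. The causes were not tested. Of the 972 alternatives on log2 fold changes of main transcripts, 19 turned the sign.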
